A study of Homo sapiens with 2 samples.

Results

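The APOBEC3 genes are 7 related genes, APOBEC3A, APOBEC3B, APOBEC3C, APOBEC3D, APOBEC3F, APOBEC3G and APOBEC3H, that lie side by side on human chromosome 22. They were selected by gene name from a deposited list of IRF1 binding summits, so the presence of a summit beside a gene is a description here and was not tested. Of the 1986 summits in the list, 5 had an APOBEC3 gene as the authors' nearest gene, and these 5 belonged to 4 of the 7 genes. APOBEC3C, APOBEC3D and APOBEC3G had 1 summit each and APOBEC3F had 2. APOBEC3A, APOBEC3B and APOBEC3H had none. As background, 6.43% of 19817 protein-coding genes were the nearest gene of at least 1 summit at any distance, and 2.04% of at least 1 summit within 1 kb of a transcription start site (TSS). Nothing is read from the difference, because the genes were chosen with the list in view.

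The study mapped the binding of IRF1, which switches on genes of the interferon response, by chromatin immunoprecipitation and sequencing (ChIP-seq). The cells were NB4, an established line of acute promyelocytic leukemia with a PML-RARA fusion gene. Its 2 libraries were 1 of cells given all-trans retinoic acid (ATRA) for 4 hours and 1 control. Per the labels' protocols the cells received DMSO or ATRA. The list bears the name of the ATRA library. Control values were not analysed here, so a gain or loss with ATRA cannot be given, and with 1 library there is no spread between replicates. The read depth behind each summit is unknown.

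APOBEC3 enzymes turn cytosine into uracil in single-stranded DNA. They are known for mutating and blocking the reverse-transcribed DNA of retroviruses and retroelements, and several of them are induced by interferon. The family grew by duplication of catalytic domains, so its members share long stretches of similar sequence: APOBEC3A, APOBEC3C and APOBEC3H carry 1 such domain, and the others carry a pair.

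The cluster spans chr22:38957609-39104067 (146459 bp, hg38), and all 5 summits lay in its middle, within 63039 bp. From the low to the high end of the span, the first of them was at position 39014019 with a peak score of 15.8, with APOBEC3C as its nearest gene. The next was at 39020896 with a score of 81.5, beside APOBEC3D. APOBEC3F followed with summits at 39040647 (62.5) and 39040947 (17.1). The last was at 39077058 with a score of 108.8, beside APOBEC3G. The peak score is the authors' own value per summit, on a scale that their headers do not state, and it serves here only to rank summits within the list.

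**Figure D1:**
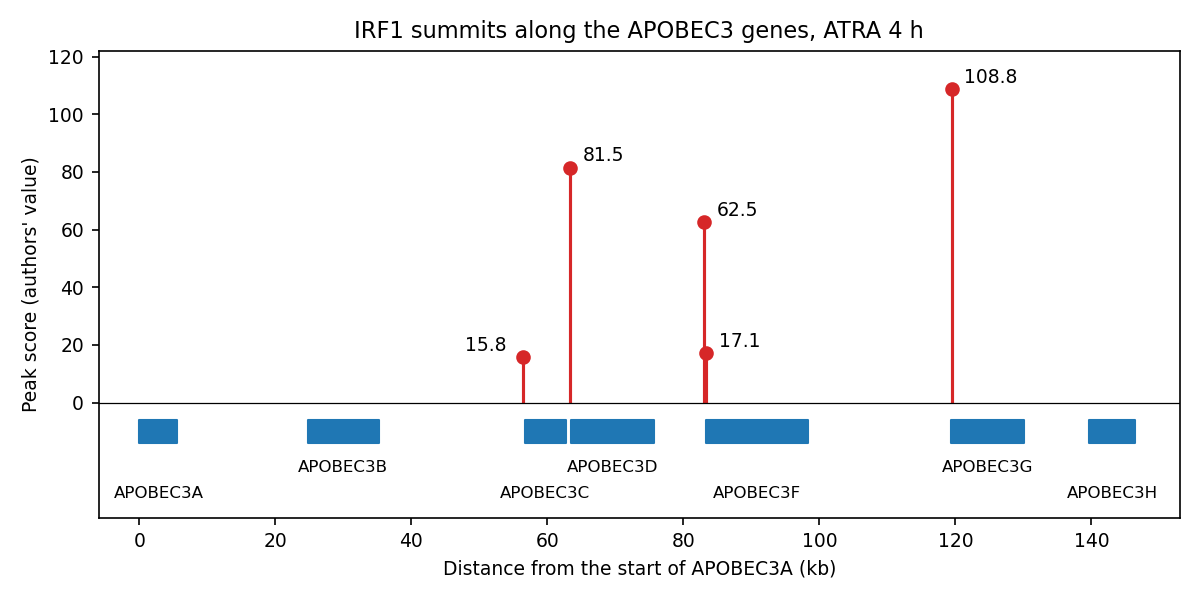
IRF1 summits along the APOBEC3 genes in ATRA-treated NB4 cells: the x axis is the distance in kb from the start of APOBEC3A, the y axis is the authors' peak score, red lines are summits and blue bars are gene spans from RefSeq. The 5 summits stand at the left edges of APOBEC3C, APOBEC3D, APOBEC3F and APOBEC3G, and no line stands over APOBEC3A, APOBEC3B or APOBEC3H.

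The summits were unevenly spaced. The gap from the APOBEC3C summit to the APOBEC3D summit was 6877 bp, and the next, to the first APOBEC3F summit, was 19751 bp. Both APOBEC3F summits were 300 bp apart, and APOBEC3G followed 36111 bp further on. Outside the stretch, the nearest summit on the low side lay 307 kb away, beside GTPBP1 (score 26.4). On the high side it lay 2.22 Mb away, beside ZC3H7B (54.1). Chromosome 22 held 44 summits in all. Across the list, leaving out a dense block of 133 summits on chromosome 21, the median gap between neighbouring summits was 679 kb. Of these gaps, 6.50% were shorter than the one between APOBEC3C and APOBEC3D, and 11.7% were shorter than the one between APOBEC3F and APOBEC3G. The 307 kb on the low side was below the median gap of 679 kb, and the 2.22 Mb on the high side was above it. Of the 1853 summits outside the block, 18 began a stretch of at least 5 summits within 63039 bp. That length and number were taken from the APOBEC3 summits, so the APOBEC3C summit is among the 18 by construction. Such stretches can overlap, so the 18 are not separate clusters.

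APOBEC3G had the highest score in the cluster. The enzyme is packaged into HIV particles that lack the viral protein Vif and then mutates the viral DNA in the next cell. Its summit ranked 135 of 1986, above 93.1% of the list, and 2 other summits had the same score. It lay 53 bp downstream of the authors' TSS, in the class promoter-TSS, and inside the RefSeq span of the gene (chr22:39077005-39087743), whose first base is that TSS.

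APOBEC3D, a double-domain enzyme that also restricts HIV without Vif, came next. Its summit ranked 244, above 87.7% of the list, at -217 bp from the TSS (upstream) and in the class promoter-TSS. The RefSeq span of APOBEC3D is chr22:39021127-39033277, and only 774 bp separate it from the end of APOBEC3C (chr22:39014257-39020352). The summit lay in this interval, 544 bp past the last base of APOBEC3C. The assignment to APOBEC3D is by distance to the TSS.

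APOBEC3F, a close relative of APOBEC3G with a like action on Vif-deficient HIV, was the only one of the 7 genes with 2 summits. The stronger summit (62.5) ranked 329, above 83.4% of the list, at -21 bp from the authors' TSS, and the weaker (17.1) ranked 1549, above 21.7%, at 279 bp downstream. The authors classed the stronger as promoter-TSS and the weaker as 5′ UTR, in exon 1 of 7. Of the 405 protein-coding genes with a summit within 1 kb, 28 (6.91%) had 2 or more, APOBEC3F included. Outside the chromosome 21 block, 30 of the 1830 gaps between neighbouring summits (1.64%) were at most 300 bp. That limit equals the spacing of the APOBEC3F pair, so the pair is 1 of the 30 by construction.

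APOBEC3C, a small enzyme with weak activity against HIV, had the lowest score of the cluster. Its summit ranked 1657 and exceeded 15.6% of the list, and 20 other summits shared its score. It lay at -241 bp from the TSS and was classed as promoter-TSS. The weaker APOBEC3F summit and the APOBEC3C summit were both below the list's median of 25.2 (quartiles 17.7 and 44.0), and the other 3 were above its upper quartile. With no replicate, the order of the 5 scores has no error attached. When ranked only among the 539 summits within 1 kb of a TSS, APOBEC3G exceeded 88.3%, APOBEC3D 82.6%, the APOBEC3F summits 78.8% and 22.1%, and APOBEC3C 15.4%.

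**Figure D2:**
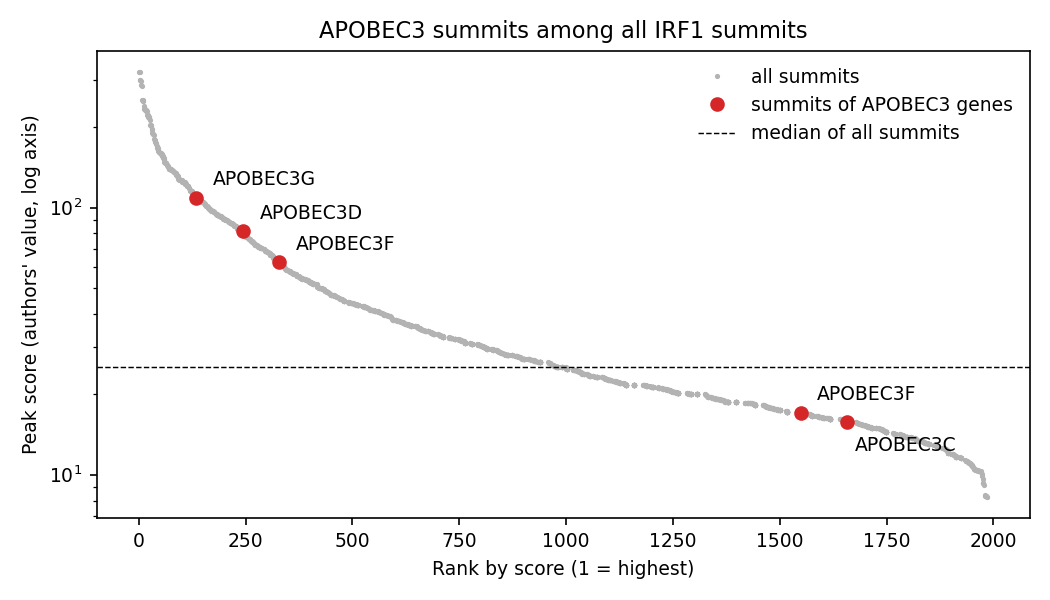
Peak score on a log axis against rank for all 1986 summits of the list, with the 5 summits of APOBEC3 genes in red and the median score of 25.2 as a dashed line. APOBEC3G, APOBEC3D and the stronger APOBEC3F summit (ranks 135, 244 and 329) sit on the steep part of the curve, and the weaker APOBEC3F summit and APOBEC3C (ranks 1549 and 1657) on its tail.

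All 5 summits lay within 279 bp of the authors' TSS, and the side of the TSS differed between genes. Of all 1986 summits, 539 lay within the wider limit of 1 kb from a TSS, and nothing is read from the difference. Subtracting each signed distance from its summit gives the TSS that the authors' annotation used, which was within 14 bp of the RefSeq start (GRCh38.p14) of APOBEC3C, APOBEC3D and APOBEC3G. For APOBEC3F it lay at -196 bp from the RefSeq start of 39040864. Measured from the RefSeq starts, the APOBEC3C, APOBEC3D and stronger APOBEC3F summits fell at -238, -231 and -217 bp, a range of 21 bp. Measured from the authors' TSSs the same 3 summits ranged over 220 bp. The APOBEC3G summit stayed at 53 bp and the weaker APOBEC3F summit fell at 83 bp from the RefSeq start. This second measure was chosen after the positions had been seen, and the nearness of the 3 offsets was not tested. These genes share sequence by descent, and their promoter sequences were not compared here.

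**Figure D3:**
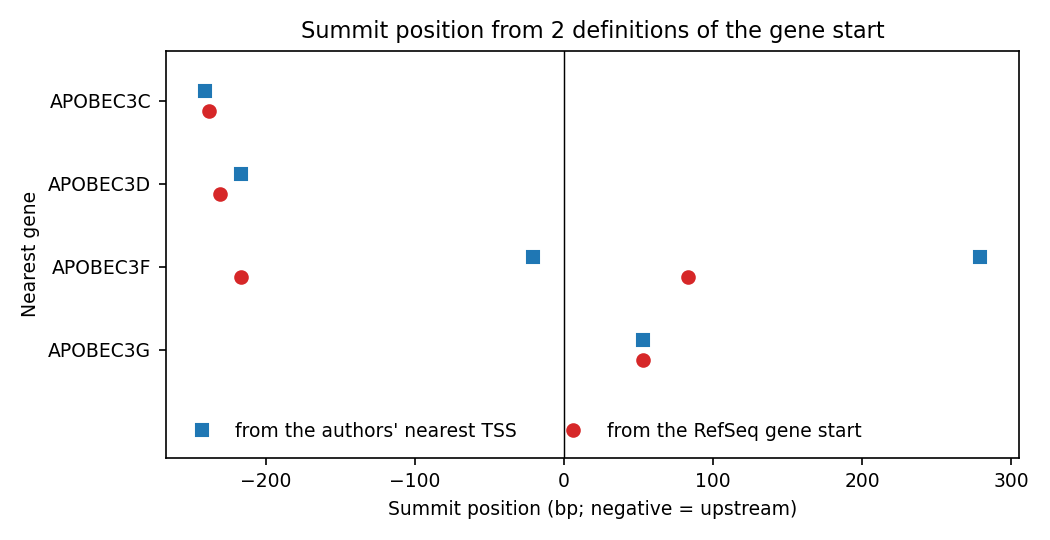
Position in bp of each APOBEC3 summit from the TSS the authors used (blue squares) and from the start of the RefSeq gene span (red circles), by gene. From the RefSeq starts, 1 summit each of APOBEC3C, APOBEC3D and APOBEC3F lines up between -238 and -217 bp, and APOBEC3G lies downstream at 53 bp.

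The 4 genes with a summit follow each other directly. In the order of protein-coding genes along the chromosomes, the genes with a summit within 1 kb fell into 377 runs, of which 353 were 1 gene long and 22 were 2 genes long. None was 3 long, and 2 runs reached 4, which was the greatest length: APOBEC3C to APOBEC3G on chromosome 22, and TAP2, PSMB8, TAP1 and PSMB9, a set of antigen processing genes on chromosome 6. This count was made after the cluster had been seen, and it describes the list without a test. A summit counts for its nearest gene only, so a promoter shared by neighbouring genes can break a run.

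The 3 genes without a summit lie at the ends of the cluster. APOBEC3A, a potent nuclear and cytoplasmic deaminase of myeloid cells, spans chr22:38957609-38963184, and the nearest summit was 50835 bp from it. APOBEC3B, a nuclear enzyme linked to mutations in tumours, spans chr22:38982347-38992779, and the nearest summit was 21240 bp away. Both of these summits are the weak one at APOBEC3C. APOBEC3H, which can restrict HIV and retroelements, spans chr22:39097244-39104067, and its nearest summit was that of APOBEC3G at 20186 bp. Inside the cluster RefSeq also lists 5 genes that are not protein-coding, among them APOBEC3B-AS1, and 0 of them were the nearest gene of a summit. Nor was any summit assigned to CBX7, a Polycomb protein gene and the only other protein-coding gene within 50 kb of the cluster.

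An absent summit does not show absent binding. APOBEC3 genes resemble each other, and the sources used here do not say how reads that match several of them were placed. The same holds for the relative scores of APOBEC3C, APOBEC3D, APOBEC3F and APOBEC3G. The part of shared sequence in the scores and in the missing summits was not tested. If the control library was the background of the calling, which the sources do not state, a gene bound alike in both libraries would have no summit.

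IRF proteins bind DNA with repeats of GAAA spaced by a pair of bases. The RefSeq promoter table (GRCh38.p14, 250 bases before to 50 after each gene start) matched 1 of the 7 genes, APOBEC3H, which has no summit. APOBEC3A, APOBEC3B, APOBEC3C, APOBEC3D, APOBEC3F and APOBEC3G had no entry. The motif searched on both strands was GAAA, any 2 bases and GAAA again, exactly and with 1 mismatch in the fixed letters. Its extension adds any 2 bases and a further GAAA. The exact motif and the extension were not in the APOBEC3H window. With 1 mismatch there were 3 matches, 2 of which overlap, beginning at -131 and -125 bp from the gene start. The third begins 26 bp after it. The upstream part of the APOBEC3H window is shown because the summits of the other genes lay near their starts, with the 2 overlapping matches in capitals, and then the third match. A stretch upstream of BST2 is set beside them, since it holds 2 overlapping exact matches that together make the extended motif. BST2 encodes tetherin, which holds budding viruses at the cell surface, and was chosen after its matches had been seen. Like APOBEC3H, it had no summit.

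APOBEC3H upstream (chr22:39096994-39097243, plus strand): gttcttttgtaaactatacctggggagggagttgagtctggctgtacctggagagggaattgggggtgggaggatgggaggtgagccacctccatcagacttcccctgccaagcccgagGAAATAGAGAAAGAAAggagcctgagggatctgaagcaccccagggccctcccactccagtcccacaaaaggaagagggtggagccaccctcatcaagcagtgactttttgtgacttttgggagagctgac
APOBEC3H after the start (chr22:39097264-39097293, plus strand): gctgccAAAAGTGAAActtagtgcctcaga
BST2 upstream (chr19:17405737-17405766, minus strand): ttctggGAAACTGAAACTGAAAacctaatt

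Over the whole promoter table, windows with a summit held the motif more often, a difference described here without a test. Of 34788 windows, some of which overlap because a gene can have several starts, 3.57% held the exact motif, 33.0% held it with 1 mismatch and 0.155% held the extension. Among the 299 windows with an IRF1 summit inside, 115 (38.5%) held the exact motif, and among the 34489 without a summit 1128 (3.27%) did. With 1 mismatch the shares were 68.9% and 32.7%, so a match of that kind, as in APOBEC3H, was common in windows with no summit.

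Functionally related genes elsewhere in the genome were taken from 4 lists, of which 29 genes are reported. Of the 29, 3 were the nearest gene of a summit, beside 6.43% of all 19817 protein-coding genes at any distance. The lists are small and were chosen with earlier results known, so nothing is read from their counts. Of the APOBEC genes outside the cluster, 0 of 3 had a summit: APOBEC1, which edits apolipoprotein B mRNA, APOBEC2 and APOBEC4. Of 4 deaminases that act on adenosine in RNA or on free cytidine, ADAR had a summit 68 bp from its TSS, scoring 159, higher than any in the APOBEC3 cluster. ADAR edits adenosine in double-stranded RNA and has an interferon-induced form. Of 6 genes that handle uracil in DNA, the product of APOBEC3 enzymes, 0 had a summit (UNG, SMUG1, TDG, MBD4, APEX1 and DUT). Of 16 genes that restrict retroviruses at other steps, 2 had one. SAMHD1, which depletes the nucleotides needed for reverse transcription, had a score of 30.3 at 936 bp, and ZC3HAV1, which targets viral RNA for decay, had 52.5 at 333 bp and 17.2 at -2292 bp. Within 10 kb of the span of TRIM5, which attacks incoming capsids, lay a summit assigned to TRIM34. The promoter table held 23 of the 29 genes. The exact motif was in windows of 5 of them (MBD4, TRIM5, BST2, IFITM1 and IFITM3), and 0 of these 5 were the nearest gene of a summit. Over all 34788 windows, 3.57% held the exact motif, and 115 of the 1243 windows with it had a summit inside. Those shares count windows and not nearest genes, and nothing is read from the 0 of 5.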

How the data were processed

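IRF1 ChIP-seq was deposited as 1 list of summits for the ATRA library, annotated against hg38 with HOMER's annotatePeaks.pl, per the file headers. Bowtie2 2.2.9 and MACS 1.4.2 are named in the submitters' processing notes. For the calling background, its threshold, duplicates and reads that map to several places, no setting was given in the sources used here. The deposited peak score is the authors' value and has no stated scale, and distances to the TSS in bp are theirs too. Positions are 1-based. The members and gene lists were chosen with earlier results of these data known. All 7 members, any gene with a summit within 50 kb of the cluster and list genes with a summit are named. Entrez identifiers were matched to RefSeq (GRCh38.p14), where 1977 of 1986 were found. Gene counts used protein-coding genes of the main assembled autosomes and chromosome X. A gene of these lists is not reported here. No test was run. The motif search was tested on simulated data. The alternatives were TSS distances, score limits, merging, spans and motif mismatches. The comparison of promoter and protein sequences between members was not run. Python 3.11.15, pandas 2.3.3 and numpy 2.4.6 were used.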

Additional observations from a re-analysis of the deposited data

How the results depend on the processing

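No paired analysis was possible because only the treated library gave values. The number of APOBEC3 genes with a summit was 4 with summits limited to 10, 5 or 1 kb from a TSS and with gene spans extended by 10 kb, and 3 with scores at or above the median, where APOBEC3C dropped out. All 5 summits lay within 279 bp of the TSS, and the 3 genes without one were at least 20186 bp from any. The distance limits and extended spans therefore could not change the number. The cluster held 5 summits with no margin and with 50 or 100 kb on each side, and merging summits under 200 bp apart left 5. The nearest outside summit lay 307 kb from the APOBEC3C summit, beyond either margin, and the closest pair was 300 bp apart. These settings therefore could not change the count. The number of related genes with a summit was 3 under each TSS distance and with scores at or above the median, and 4 with extended spans, an alternative added after seeing the data. Each of the 3 had a summit within 936 bp of its TSS, so the TSS distances could not change that number. The exact motif was in 0 of 1 APOBEC3 promoter windows, the extended motif in 0 and the motif with 1 mismatch in 1, by the construction of a looser search. The percentiles of the 5 scores moved by 0.160 to 5.15 points when taken among summits within 1 kb of a TSS. Read depth per summit is unknown.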
